A study of Homo sapiens with 6 samples.

Results

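The protocadherins are the largest branch of the cadherin superfamily of adhesion proteins. They were taken here as the genes in the deposited table whose symbol begins with PCDH, with PCDH11X and PCDH11Y left out, which gave 64 of the 18056 genes listed. Of these, 53 belong to the 3 gene clusters on chromosome 5 and 11 are non-clustered genes. The alpha cluster (PCDHA) held 15 members, the beta cluster (PCDHB) 16 and the gamma cluster (PCDHG) 22. The non-clustered genes were the delta-1 members PCDH1, PCDH7 and PCDH9, the delta-2 members PCDH8, PCDH10, PCDH17, PCDH18 and PCDH19, and PCDH12, PCDH15 and PCDH20.

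RNA was sequenced from forebrain organoids, cell aggregates grown from human stem cells that form tissue resembling the dorsal forebrain. The starting cells were DYR0100, an established human iPSC line of wild-type genotype, so every value describes a single line. The comparison was between 3 libraries of organoids given vehicle and 3 libraries of organoids given 5 µM Aβ42, the aggregation-prone amyloid-β peptide, with 6 days of exposure and all libraries in Batch1. The submitters describe the replicates as independent biological replicates, and the labels do not say whether organoids were pooled or shared a culture.

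Clustered protocadherins give neurons cell-surface identities. Each alternate alpha, beta or gamma member has its own promoter and its own large first exon, a neuron uses only a few of these promoters, and the C-type members at the ends of the alpha and gamma clusters are used more broadly. Promoter choice depends on CTCF and cohesin, which bring distant enhancers to the chosen promoters, and cells that carry matching protocadherin sets recognise one another through their extracellular cadherin domains. Non-clustered protocadherins are ordinary single genes that act in adhesion, axon growth and the sorting of cell groups.

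The arrangement of the clusters was read from the GENCODE release 29 annotation of GRCh38, because it decides which reads can be told apart. On the plus strand of chromosome 5, the alpha genes run from 140786140 to 141012347, the beta genes from 141051374 to 141249365 and the gamma genes from 141330514 to 141512975 (gene limits from RefSeq, GRCh38.p14). All 15 alpha genes end on the same 3 constant exons of 59, 89 and 2718 bases, of which the last holds 308 coding bases. All 22 gamma genes end on another set of 59, 89 and 2033 bases, the last with 224 coding bases. Shared exons were not searched for among the 16 beta genes, which are known as near-copies of one another without a constant part. The sequences below show the splice from the last 20 bases of the variable exon (lower case) into the first constant exon (capitals) for a highly expressed alternate and a C-type member of each cluster, with the coordinates of the variable part and of the constant exon.
PCDHA4, chr5:140809553-140809572 and chr5:140978949-140979007, plus strand: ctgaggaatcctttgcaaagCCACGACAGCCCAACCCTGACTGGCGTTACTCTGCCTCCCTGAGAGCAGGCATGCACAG
PCDHAC2, chr5:140969312-140969331 and chr5:140978949-140979007, plus strand: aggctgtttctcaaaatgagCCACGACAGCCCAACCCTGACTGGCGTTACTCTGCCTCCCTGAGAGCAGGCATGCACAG
PCDHGB4, chr5:141390262-141390281 and chr5:141494807-141494865, plus strand: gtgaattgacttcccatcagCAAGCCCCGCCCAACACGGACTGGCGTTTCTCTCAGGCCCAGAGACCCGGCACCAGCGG
PCDHGC4, chr5:141487596-141487615 and chr5:141494807-141494865, plus strand: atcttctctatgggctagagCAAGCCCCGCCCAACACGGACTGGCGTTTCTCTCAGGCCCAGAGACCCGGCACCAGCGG

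A read that lies wholly within the capitals fits every member of its cluster equally. Members of the alpha or of the gamma cluster therefore share part of their sequence and are not independent measurements. Cut into windows of 100 bases, a median of 54.1% of the representative alpha transcript (46.0% to 64.0% over the 15 genes) was also found in another annotated gene, against 46.8% (44.6% to 55.0%) for the 22 gamma genes and 6.5% (0.0% to 25.7%) for the 16 beta genes. Outside the constant exons the alpha and gamma medians were 0.7% and 1.55%. The largest overlaps between variable exons were those of PCDHA7 with PCDHA9, at 22.3% of the PCDHA7 windows outside the constant exons, and of PCDHGB4 with PCDHGB5, at 15.3% of such PCDHGB4 windows. Of the non-clustered genes only PCDH20 shared windows, with 95.7% of them found in the overlapping annotation AL592490.1.

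The deposited counts themselves were checked for whole numbers. A count that is not a whole number is not a plain sum of whole reads. Among all 18056 genes, 87.3% of the count values were whole to within 1e-06. In the alpha cluster 0 of 90 values were whole, in the beta cluster 31 of 96 (32.29%), in the gamma cluster 21 of 132 (15.91%), and among the non-clustered genes 65 of 66 (98.48%), the exception being PCDH9 in vehicle replicate 2. PCDHB1, which shares no window with another gene and had only 0 to 5 counts per library, was the only clustered member with a whole count in all 6 libraries. Among the beta genes, PCDHB5, PCDHB6 and PCDHB7, with 2.5% to 5.2% of windows shared, had whole counts in 5 libraries each. PCDHB8 and PCDHB13, with 25.7% and 15.1% shared, had none. Other genes departed from this order. PCDHB14, PCDHB3 and PCDHB9, with 6.1%, 8.1% and 10.7% shared, also had none, and PCDHB10, with 24.7%, had 1. The scarce gamma gene PCDHGB3, with 45.1% shared, had whole counts in 5 libraries. Of the non-clustered genes, PCDH9 shares no window, while PCDH20, with 95.7% shared, had whole counts in all 6 libraries. Values of clustered members below are therefore estimates that may depend on how reads in shared sequence were assigned. How fractional counts arose is not given in the sources used here, and the part of shared sequence in them was not tested.

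**Figure D1:**
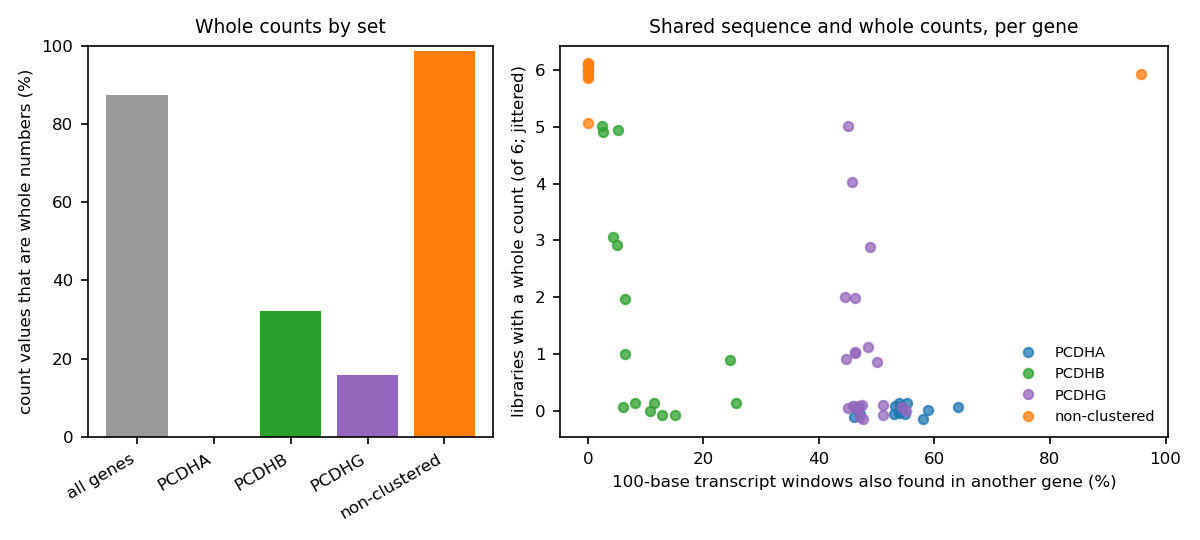
Left, the percentage of deposited count values that are whole numbers, for all genes and for each set of protocadherins over 6 libraries. Right, 1 point per protocadherin, with the percentage of its 100-base transcript windows found in another gene on the x axis and the number of libraries (of 6, jittered) with a whole count on the y axis. Alpha genes sit at 0 libraries with 46.0% to 64.0% shared, and non-clustered genes at 5 or 6 libraries, with PCDH20 alone at 95.7% shared.

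Each clustered member has its own promoter, which is the part of the gene that the shared exons leave distinct. RefSeq promoter sequences (GRCh38.p14) were found for 56 of the 64 members; those of PCDHA3, PCDHA13, PCDHB6, PCDHB11, PCDHGA12, PCDHGC5, PCDH10 and PCDH20 were not matched. The letters CGCT, the core of the conserved element of clustered protocadherin promoters, were searched on the coding strand in the 120 bases before the annotated start. They were present in 12 of 13 alpha, 13 of 14 beta and 19 of 20 gamma promoters and in 4 of 9 non-clustered promoters, beside 31.66% of all 27305 promoters in the table. Between 80 and 31 bases upstream they were present in 11, 11, 18 and 3 promoters of these sets, beside 15.39% of all promoters. The longer run GGTGGCGCT, which contains CGCT, was searched on both strands of the whole 300-base window and occurred in 13 of 14 beta promoters, in no alpha, gamma or non-clustered promoter, and in 0.52% of all promoters. The letters TATAA were found on the coding strand of the 120 bases in 1 alpha, 0 beta, 4 gamma and 1 non-clustered promoter, beside 8.1% of all. The windows and motifs were chosen after the sequences had been seen, and a match is only a match of letters.

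The 120 bases upstream are printed for the members that lead each cluster and for the gamma members whose promoters are most alike, with CGCT in capitals.
PCDHA4, chr5:140806948-140807067, plus strand: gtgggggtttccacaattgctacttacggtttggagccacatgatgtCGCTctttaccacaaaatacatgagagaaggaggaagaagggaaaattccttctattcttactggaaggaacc
PCDHAC2, chr5:140966356-140966475, plus strand: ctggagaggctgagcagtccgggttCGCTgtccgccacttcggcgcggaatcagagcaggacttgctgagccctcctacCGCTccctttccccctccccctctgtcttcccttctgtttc
PCDHB2, chr5:141094495-141094614, plus strand: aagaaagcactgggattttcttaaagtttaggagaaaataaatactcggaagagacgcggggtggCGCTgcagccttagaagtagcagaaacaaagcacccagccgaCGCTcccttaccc
PCDHGB4, chr5:141387578-141387697, plus strand: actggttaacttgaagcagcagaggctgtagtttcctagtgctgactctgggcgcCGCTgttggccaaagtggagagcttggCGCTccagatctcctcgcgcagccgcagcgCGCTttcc
PCDHGB5, chr5:141397827-141397946, plus strand: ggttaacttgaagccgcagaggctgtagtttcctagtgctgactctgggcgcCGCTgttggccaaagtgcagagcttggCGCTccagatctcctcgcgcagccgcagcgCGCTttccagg
PCDHGB6, chr5:141407901-141408020, plus strand: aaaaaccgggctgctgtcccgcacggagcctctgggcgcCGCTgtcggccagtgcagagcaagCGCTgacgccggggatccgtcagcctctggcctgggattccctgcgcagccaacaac
PCDHGB7, chr5:141417557-141417676, plus strand: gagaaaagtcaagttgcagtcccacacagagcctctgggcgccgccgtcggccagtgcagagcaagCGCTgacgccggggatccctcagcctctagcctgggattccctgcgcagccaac

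Among the gamma-B members, the upstream windows of PCDHGB4 and PCDHGB5 were 93.5% identical and those of PCDHGB6 and PCDHGB7 86.2%, whereas the other pairs lay between 43.5% and 57.9%. The variable coding sequences of these pairs were 84.8% and 79.0% identical, beside 71.4% to 77% for the other pairs. The pair with the most alike promoters stood far apart in level. PCDHGB4 was at 111 TPM (the deposited length-scaled level, in which the values of a library add up to a fixed sum) on average over the 6 libraries and PCDHGB5 at 3.65 TPM, while PCDHGB6 and PCDHGB7 were at 96.6 and 59.6 TPM.

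Library totals were 16465390 to 16742958 estimated counts, of which the protocadherins took 0.166% to 0.176%. Of the markers of the labelled tissue, 5 excitatory neuron genes summed to 1113 to 1227 TPM over the 6 libraries. Of 5 microglial markers, C1QA, C1QB and TREM2 were at 0 in all 6 libraries, and 2 hindbrain and spinal HOX genes summed to 0.11 TPM at most. TTR, a choroid plexus gene, ranged from 2805 to 7487 TPM and was highest in the 2 libraries numbered 2. DCN, a mesenchymal gene, was highest there within each group, at 22.3 and 8.82 TPM. Choroid plexus CLIC6 and FOLR1 and mesenchymal LUM were also highest there within each group. Choroid plexus AQP1 was highest among vehicle libraries in replicate 1 (21.6 TPM, beside 17.4 in replicate 2). With Aβ42, mesenchymal COL1A1 was highest in replicate 1 (0.73 TPM) and COL3A1 in replicate 3 (0.24 TPM). In bulk RNA, fewer cells that use a promoter and less RNA per cell cannot be told apart.

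The organoids used the 3 clusters and the non-clustered genes at different summed levels. The gamma cluster was at 349.4 to 365.7 TPM in vehicle and 318.5 to 334.1 TPM with Aβ42, the beta cluster at 240.7 to 249.5 and 209.4 to 236.2 TPM, the alpha cluster at 164.6 to 180.2 and 155.4 to 162.2 TPM, and the non-clustered genes at 123.1 to 133.3 and 122.6 to 139.2 TPM. The order of the 4 sums was the same in every library. The order of single members was also alike between libraries: Spearman's rank correlation of TPM over the 64 members was 0.9425 to 0.9801 across the 15 pairs of libraries, a description over genes that share length and sequence.

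In the gamma cluster, 3 members held most of the signal. PCDHGB4 took 32.4% of the cluster's TPM on average, PCDHGB6 28.2% and PCDHGB7 17.5%, which made 78.1% for these 3 of 22 genes. In vehicle, PCDHGB4 (124 ± 5.43 TPM, SD, n = 3) lay above PCDHGB6 (101 ± 4.97) in every library. With Aβ42 the values of PCDHGB4 (98.5 ± 12.3) and PCDHGB6 (92.5 ± 3.84) overlapped. All 10 genes that come first along the cluster, PCDHGA1 to PCDHGA7 and PCDHGB1 to PCDHGB3, stayed at a mean of 0.268 to 2.99 TPM, and the 3 leading genes stood at positions 11, 15 and 17 of 22. The pattern along the cluster was not smooth: PCDHGA9 and PCDHGA12, at positions 14 and 19, were at 1.28 and 0.612 TPM.

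The C-type gamma members at the end of the cluster differed widely. PCDHGC4, known from mice for its part in the survival of neurons, was at 31.9 ± 2.08 TPM in vehicle and 30.5 ± 8.21 with Aβ42. PCDHGC3, which binds the Wnt pathway scaffold AXIN1, was at 14.3 ± 4.89 and 13.9 ± 4.39 TPM. PCDHGC5 was at 2.34 ± 0.320 and 2.87 ± 0.484 TPM. PCDHGC4 was higher than PCDHGC3, and PCDHGC3 higher than PCDHGC5, in all 6 libraries.

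The alpha and beta clusters were more evenly used. In the alpha cluster, PCDHA4 took 20.8% of the TPM, PCDHAC2 17.4% and PCDHA10 15.4%, and their levels in vehicle, 35.8 ± 3.26, 26.4 ± 3.14 and 30.3 ± 10.3 TPM, overlapped for PCDHA4 with PCDHA10 and for PCDHA10 with PCDHAC2. PCDHAC1, the other C-type alpha member, was at 3.23 ± 0.390 TPM in vehicle, and PCDHA13, next to it in the cluster, was the lowest alpha gene at 0.513 ± 0.380 TPM. In the beta cluster, PCDHB2 took 20.2% of the TPM and was the highest beta gene in vehicle at 52.8 ± 0.721 TPM. PCDHB10, PCDHB15 and PCDHB5 followed at 36.1 ± 0.125, 33.1 ± 3.31 and 32.4 ± 4.36 TPM and did not differ beyond their spread. PCDHB1, the first beta gene along the chromosome, had 0 to 5 counts per library.

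Among the non-clustered genes, PCDH1 led with 27.7 ± 0.410 TPM in vehicle, followed by PCDH8 (23.5 ± 0.835), PCDH10 (20.5 ± 2.62) and PCDH19 (17.5 ± 1.85). PCDH1 was above PCDH8 in every vehicle library, and PCDH8 and PCDH10 overlapped. PCDH12, known as an endothelial and trophoblast protocadherin, was at 1.16 ± 0.157 TPM in vehicle. Over the 6 libraries, endothelial CDH5 was at 0 to 0.04 TPM and PECAM1 at 0 to 0.09 TPM. The endothelial markers KDR and CLDN5 were at 0.23 to 0.90 and 1.84 to 6.92 TPM. PCDH15, which forms the tip links of inner ear hair cells, had 2 to 16 counts per library.

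**Figure D2:**
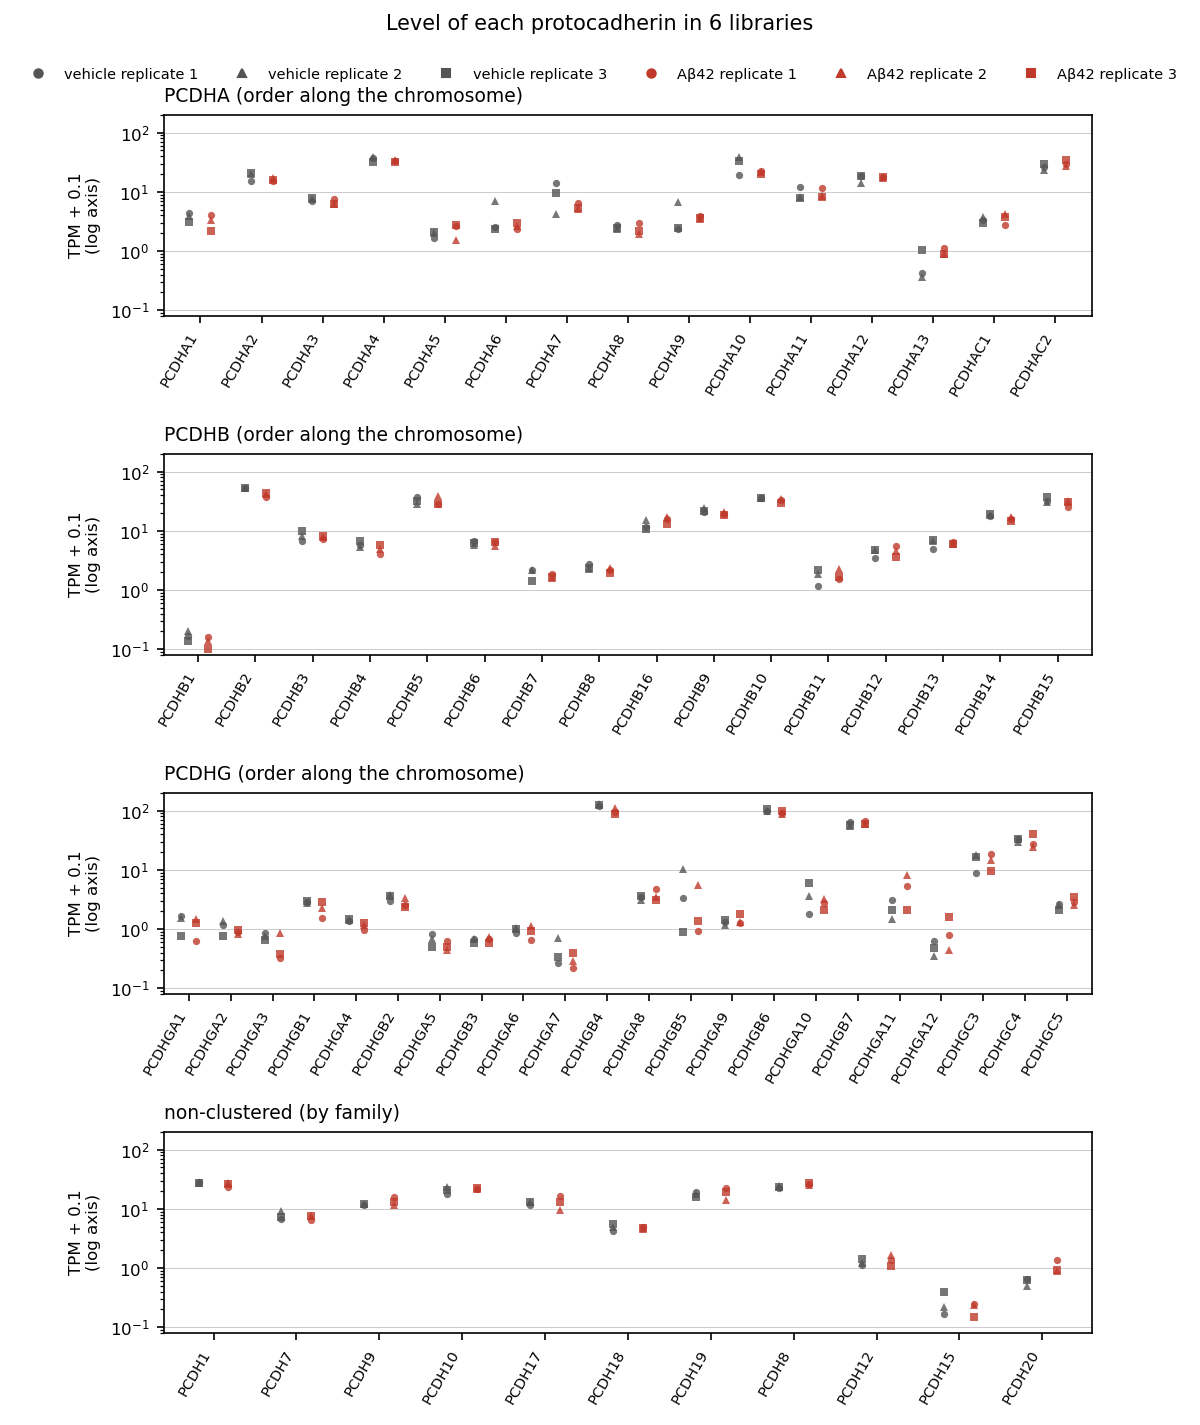
TPM plus 0.1 on a log axis for each of the 64 protocadherins, with clustered genes in their order along chromosome 5 and non-clustered genes by family. Grey symbols are the 3 vehicle libraries and red symbols the 3 Aβ42 libraries, with 1 shape per replicate number. PCDHGB4, PCDHGB6 and PCDHGB7 stand above the rest of the gamma cluster, while the beta genes form a graded series below PCDHB2.

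Most alpha and gamma members varied more between libraries of the same treatment than genes of like count. The SD of log2 CPM (counts per 1e6 reads after TMM scaling) within treatment was compared with the median SD of all genes of like mean count. It was above that median for 14 of 15 alpha, 16 of 20 gamma, 10 of 15 beta and 6 of 10 non-clustered genes tested. By definition, as many genes of like count lie above their median as below it. The beta and non-clustered numbers were nearer to such an even split than the alpha and gamma numbers. The median SDs were 0.275, 0.359, 0.195 and 0.196, beside 0.125, 0.200, 0.130 and 0.081 for genes of like count. Of the 60 genes, 6 alpha, 7 gamma, 1 beta and 3 non-clustered members lay above the 95th percentile of those genes.

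The most variable member was PCDHGB5, with an SD of 1.68. Its level was 3.30, 10.3 and 0.80 TPM in vehicle replicates 1 to 3 and 0.84, 5.36 and 1.29 TPM in Aβ42 replicates 1 to 3. The libraries numbered 2 were the highest of each group. PCDHGB4, its nearest copy, was also highest in the libraries numbered 2, but its SD was only 0.0876.

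Several alpha members were set apart by 1 library. PCDHA9 was at 6.52 TPM in vehicle replicate 2 and at 2.24 to 3.81 TPM in the other 5 libraries. PCDHA6 was at 6.98 TPM in the same library and at 2.21 to 2.83 TPM in the others. PCDHA7 was lowest there, at 4.12 TPM, beside 13.8 TPM in vehicle replicate 1, 9.38 TPM in vehicle replicate 3 and 4.93 to 6.30 TPM with Aβ42. Thus the library that was high for PCDHA6 and PCDHA9 was low for PCDHA7. Whether organoids that used different promoters or the division of reads gave these differences was not tested.

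The other variable members moved with other libraries. PCDHA10 was at 18.9, 38.8 and 33.1 TPM in vehicle and at 22.3, 21.9 and 20.2 TPM with Aβ42, so that vehicle replicate 1 lay below all the other 5 libraries. PCDHGC3 was low in vehicle replicate 1 (8.69 TPM) and Aβ42 replicate 3 (9.31 TPM) and at 14.3 to 18.1 TPM in the other libraries. PCDHGA11 ranged from 1.39 to 3.05 TPM in vehicle and from 2.01 to 8.04 TPM with Aβ42. Among the delta genes, PCDH9, PCDH17 and PCDH19, whose counts were whole but for 1 value, were each highest in Aβ42 replicate 1 and lowest in Aβ42 replicate 2, at 15.6 and 11.3, 16.4 and 9.59, and 22.6 and 14.3 TPM.

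**Figure D3:**
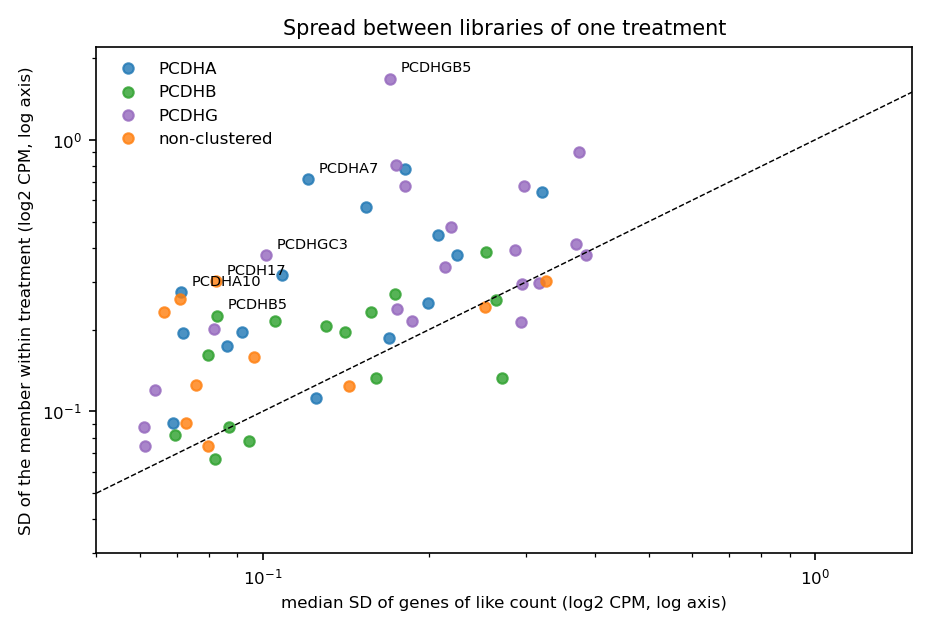
SD of log2 CPM within treatment for each of the 60 tested protocadherins (y axis) against the median SD of all genes of like mean count (x axis), both on log axes, with the dashed line at equality. Points above the line varied more than genes of like count, PCDHGB5 the most at 1.68.

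The comparison of Aβ42 with vehicle asks whether exposure changed protocadherin transcripts. The members' median absolute log2 fold change was 0.19, beside 0.12 for all genes tested. Their median biological coefficient of variation, the fitted relative spread between libraries, was also larger, at 13.3% beside 6.69%. The part of this spread in the larger fold changes was not tested. Values were lower with Aβ42 for the most abundant gamma and beta genes, PCDHGB4 and PCDHB2, and higher for PCDH8 and the scarce PCDH20. Of the 64 members, 60 passed the filter on low counts; PCDHB1, PCDHGA7, PCDHGB3 and PCDH15 did not. By edgeR's quasi-likelihood test with Benjamini-Hochberg adjustment, 0 of 60 members passed an adjusted p of 0.05, as did 0% of the 13842 genes tested. At an unadjusted p under 0.05, 3 members were higher (PCDHB16, PCDH8 and PCDH20) and 6 lower (PCDHGB4, PCDHB2, PCDHGA4, PCDHB14, PCDHB9 and PCDH1), beside 12.4% and 11.5% of all genes tested. The CPM of the groups did not overlap for 2 higher members (PCDH8 and PCDH20) and 7 lower ones (PCDHGB4, PCDHB2, PCDHGA4, PCDHB14, PCDHB9, PCDHB10 and PCDH1), beside 13.6% and 13.4% of all genes. Each of these counts, taken as a share of the 60 members, was below that of all genes tested.

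Deviations of same-numbered libraries from their group means correlated at 0.181, 0.388 and 0.129 for numbers 1, 2 and 3. Vehicle replicate 3 with Aβ42 replicate 1 (0.177) and vehicle replicate 1 with Aβ42 replicate 3 (0.154) exceeded the pair numbered 3. The labels state no pairing, so a block on these numbers rests on these data alone. Adding the number to the edgeR model as a replicate block called 3 members higher (PCDHAC2, PCDHB16 and PCDH20) at an adjusted p under 0.05, beside 7.12% of all genes. It called 3 lower (PCDHGB4, PCDHB2 and PCDHGA4), beside 7.05%. DESeq2 without a block called PCDHGB4 and PCDHB2 lower and none higher, beside 3.46% and 3.11% of the genes it tested. Median log2 fold changes were -0.05 for the 15 alpha, -0.10 for the 15 beta, -0.20 for the 20 gamma and 0.10 for the 10 non-clustered genes tested, beside 0.00 for all genes tested. The gamma median ranged from -0.24 to -0.04 as single libraries were left out, and the alpha median from -0.08 to 0.07, with a positive sign without vehicle replicate 1, Aβ42 replicate 2 or Aβ42 replicate 3. Without Aβ42 replicate 2, edgeR without the block called 6 members higher and 5 lower, where 11.5% and 11.6% of all genes passed.

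**Figure D4:**
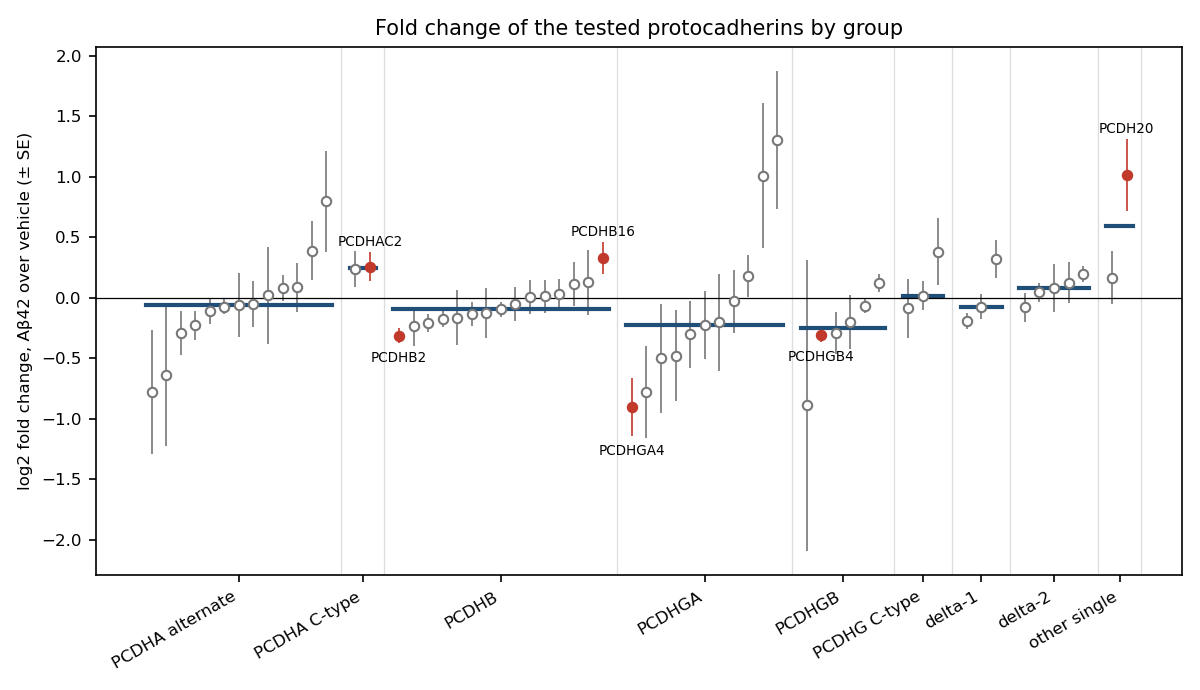
Log2 fold change of Aβ42 over vehicle with its SE for the 60 tested protocadherins, ordered by value within each group, with the group median as a blue bar. Filled red points are the 6 members with an adjusted p under 0.05 in the fit with the replicate block; in the fit without it no member passed.

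PCDHGB4, an alternate gamma-B member and the most abundant protocadherin, was at 119.7, 130.2 and 122.7 TPM in vehicle and 94.4, 112.3 and 88.8 TPM with Aβ42. All 3 Aβ42 libraries lay below all 3 vehicle libraries, and within each treatment replicate 2 was the highest. The log2 fold change was -0.31 ± 0.06 (SE), with adjusted p = 0.0684 by edgeR's quasi-likelihood test and 0.00108 with the replicate block. Summed with its near-copy PCDHGB5, with which it shares sequence, the level was 123, 140.5 and 123.5 TPM in vehicle and 95.2, 117.7 and 90.1 TPM with Aβ42, also without overlap. PCDHGB6 and PCDHGB7 had log2 fold changes of -0.07 ± 0.06 and 0.12 ± 0.07, and their groups overlapped. PCDHGB2, with the second smallest p of the gamma-B genes, had -0.29 ± 0.17 (adjusted p = 0.317 by edgeR).

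The sum over the gamma cluster separated the treatments with PCDHGB4 and not without it. The vehicle libraries summed to 629.5, 639.4 and 638.5 CPM and the Aβ42 libraries to 588.7, 596.1 and 582.3 CPM, with no overlap. Without PCDHGB4 the vehicle sums were 407.2, 406.1 and 414.2 CPM and the Aβ42 sums 411.1, 396 and 411.3 CPM, with overlap. The genes left out of such sums here and below were chosen after their values were seen, as were PCDHGB5, PCDHGB7, PCDHGA9, PCDHGA12, PCDHA6, PCDHA7, PCDHA9, PCDHB5, PCDHB9 and PCDHB15 for naming.

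Among the gamma-A members, all at low levels, PCDHGA4 had the smallest p. It had 2.34, 2.43 and 2.56 CPM in the vehicle libraries and 1.65, 1.07 and 1.2 CPM in the Aβ42 libraries, from 18 to 41.9 counts per library. The groups did not overlap, and the log2 fold change was -0.90 ± 0.24 (adjusted p = 0.0822 by edgeR, 0.0223 with the replicate block). On the TPM scale the difference was smaller, with 1.25, 1.33 and 1.39 TPM in vehicle and 0.87, 1.06 and 1.16 TPM with Aβ42, and limma on log2(TPM + 0.1) gave -0.34 (adjusted p = 0.369). The ratio of count to TPM, which follows the transcript length assigned to the gene, varied 1.86-fold between libraries for PCDHGA4, with the lower ratios in Aβ42 replicates 2 and 3. The median was 1.02-fold over 12133 genes with a mean count of at least 50 and at least 1 TPM in every library. PCDHGA4 was too scarce for that set. Among the other gamma genes outside it, the ratio varied from 1.02-fold (PCDHGA2) to 1.97-fold (PCDHGB3). PCDHGA3 followed with a log2 fold change of -0.78 ± 0.38 (adjusted p = 0.234 by edgeR).

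PCDHGA11 and PCDHGA8, the highest gamma-A members, had log2 fold changes of 1.30 ± 0.57 and 0.18 ± 0.17 (adjusted p = 0.238 and 0.542 by edgeR). The groups overlapped for each. The C-type gamma genes PCDHGC3, PCDHGC4 and PCDHGC5 had log2 fold changes of -0.09 ± 0.25, 0.02 ± 0.12 and 0.38 ± 0.28, with overlap for all 3, and adjusted p-values of 0.856, 0.941 and 0.420 by edgeR. The sign for PCDHGC3 and PCDHGC4 depended on which library was left out, and that for PCDHGC4 also on the scale, with -0.10 on log2(TPM + 0.1).

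PCDHB2, the most abundant beta gene, was at 52.7, 53.6 and 52.2 TPM in vehicle and 37.8, 42.6 and 43.1 TPM with Aβ42. The vehicle libraries lay close together, with every Aβ42 library below them. The log2 fold change was -0.31 ± 0.06, with adjusted p = 0.0684 by edgeR's quasi-likelihood test and 0.00288 with the replicate block. PCDHB14 was also lower without overlap, at 17.7, 18.5 and 19.5 TPM in vehicle and 15.5, 16.8 and 14.4 TPM with Aβ42 (log2 fold change -0.21 ± 0.07, adjusted p = 0.134 by edgeR). PCDHB9 and PCDHB10 likewise had no overlap, with -0.17 ± 0.07 and -0.10 ± 0.06 and adjusted p = 0.187 and 0.377 by edgeR.

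PCDHB16 went the other way. It was at 11.57, 14.98 and 10.72 TPM in vehicle and 15.65, 16.9 and 12.74 TPM with Aβ42, so that each Aβ42 library was above the vehicle library of the same number although the groups overlapped. Its log2 fold change was 0.33 ± 0.13, with adjusted p = 0.174 by edgeR and 0.0170 with the replicate block. The beta cluster summed to 353.7, 352.5 and 364.4 CPM in the vehicle libraries and 312.1, 349 and 323.9 CPM in the Aβ42 libraries, without overlap. With PCDHB2 taken out the sums overlapped, at 270.6, 270.01 and 283.2 against 251.8, 281.4 and 253.5 CPM.

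In the alpha cluster no alternate gene passed the unadjusted threshold without the block, and none was without overlap. PCDHA4 had a log2 fold change of -0.07 ± 0.06 and PCDHA10 one of -0.30 ± 0.18 (adjusted p = 0.501 and 0.370 by edgeR). PCDHA2 and PCDHA13, the alternate genes with the smallest p, had -0.23 ± 0.12 and 0.80 ± 0.42 (adjusted p = 0.268 and 0.270 by edgeR). With the replicate block these 2 genes passed the unadjusted but not the adjusted threshold (adjusted p = 0.0778 and 0.128 by edgeR). Summed over the 13 alternate genes, the level was 135.3, 153.1 and 142.1 TPM in vehicle and 129.8, 123.8 and 118.9 TPM with Aβ42, which did not overlap. The sum over the whole alpha cluster also had no overlap in TPM but overlapped in CPM, and without PCDHA10 and PCDHA7 it overlapped on both scales.

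Of the C-type alpha genes, PCDHAC2 passed only with the replicate block and PCDHAC1 passed in neither fit. PCDHAC2, which in mice is needed for the tiling of serotonergic axons, was at 26.1, 23.5 and 29.7 TPM in vehicle and 29.8, 27.6 and 34.9 TPM with Aβ42. Each Aβ42 library was above the vehicle library of the same number, and the groups overlapped. Its log2 fold change was 0.26 ± 0.12, with adjusted p = 0.236 by edgeR and 0.00833 with the replicate block. PCDHAC1 had 0.24 ± 0.15 (adjusted p = 0.359 by edgeR, 0.246 with the block), with overlapping groups and its lowest level, 2.7 TPM, in Aβ42 replicate 1. Whether the C-type genes differed from the alternate genes was not tested.

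**Figure D5:**
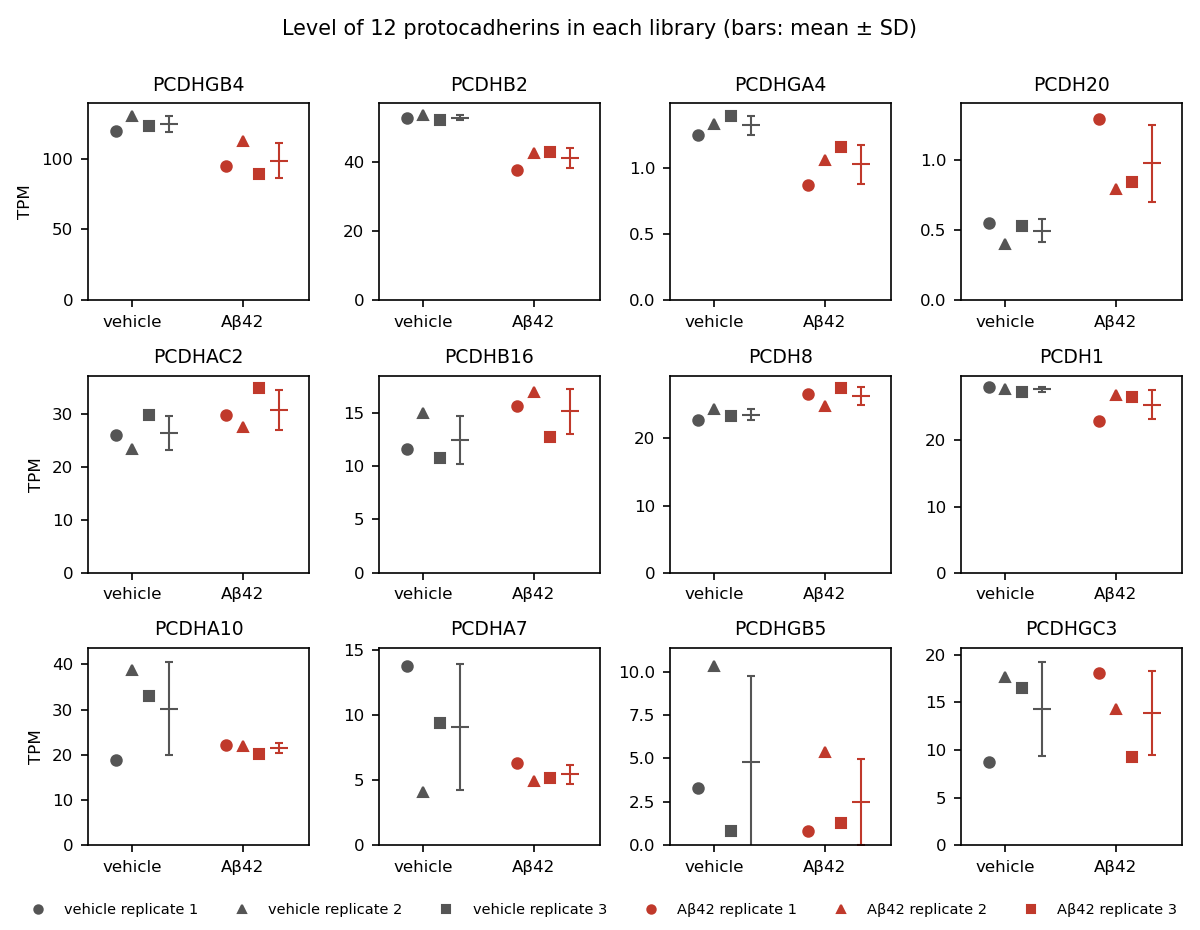
TPM of 12 protocadherins in each library, with vehicle in grey and Aβ42 in red, 1 shape per replicate number, and the mean ± SD of the 3 libraries beside the points (the lower bars of PCDHGB5 are cut at 0). PCDHGB4, PCDHB2, PCDHGA4 and PCDH1 show vehicle above Aβ42 without overlap, PCDH20 and PCDH8 the reverse, and the bottom row shows members whose libraries of 1 treatment lie far apart.

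Of the delta-1 genes, PCDH1 was at 28.1, 27.7 and 27.3 TPM in vehicle and 22.9, 26.8 and 26.5 TPM with Aβ42. The groups did not overlap, with Aβ42 replicate 1 the lowest. The log2 fold change was -0.19 ± 0.07 (adjusted p = 0.131 by edgeR). PCDH9 had 0.32 ± 0.16 and PCDH7 -0.07 ± 0.10 (adjusted p = 0.268 and 0.687 by edgeR), with overlap for both, and the sign for PCDH7 changed when vehicle replicate 2 or Aβ42 replicate 1 was left out.

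Of the delta-2 genes, PCDH8, an activity-regulated protocadherin at synapses, was at 22.8, 24.4 and 23.3 TPM in vehicle and 26.6, 24.8 and 27.5 TPM with Aβ42. The groups did not overlap, although Aβ42 replicate 2 lay just above vehicle replicate 2. The log2 fold change was 0.20 ± 0.07 (adjusted p = 0.119 by edgeR, 0.0630 with the replicate block). PCDH10, PCDH17, PCDH18 and PCDH19 had log2 fold changes of 0.04 ± 0.08, 0.08 ± 0.20, -0.08 ± 0.12 and 0.13 ± 0.17, with overlap for all 4 and adjusted p-values of 0.686 to 0.838 by edgeR. PCDH19, the gene of an X-linked epilepsy, spanned 15.5 to 19.04 TPM in vehicle and 14.3 to 22.6 TPM with Aβ42.

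PCDH20 was scarce, with 12 to 17 counts per vehicle library and 25 to 40 per Aβ42 library. It was at 0.55, 0.40 and 0.53 TPM in vehicle and 1.29, 0.79 and 0.84 TPM with Aβ42, and every Aβ42 library was above every vehicle library. The log2 fold change was 1.02 ± 0.30, with adjusted p = 0.0947 by edgeR and 0.0233 with the replicate block. Most of its transcript is shared with an overlapping annotation, and its counts were nonetheless whole in all libraries. PCDH12 had 0.17 ± 0.22 (adjusted p = 0.670 by edgeR).

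Markers of dividing cells, and some of intermediate progenitors and neurons, differed between the treatments in the same libraries. The summed level of 5 proliferation markers was 319.1 to 381.8 TPM in vehicle and 207.4 to 285.4 TPM with Aβ42, and all 5 were lower at an unadjusted p under 0.05 by edgeR, and at an adjusted p under 0.05 with the replicate block. That of 4 intermediate progenitor markers was 194.9 to 215.1 and 132.3 to 154.8 TPM, with EOMES and PPP1R17 lower by both measures, while NEUROD1 and NEUROG2 passed neither, at log2 fold changes of -0.15 ± 0.17 and 0.04 ± 0.07. The 5 pan-neuronal markers summed to 3745 to 4012 TPM in vehicle and 3478 to 3630 TPM with Aβ42. MAP2, TUBB3 and DCX were lower at an unadjusted p under 0.05 by edgeR, and the first and second of these with the block. The other 2, STMN2 and SYT1, were not lower, with log2 fold changes above 0 and at most 0.02. The part of these cell types in the lower PCDHGB4 and PCDHB2 values was not tested.

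The genes that act on protocadherin promoters, a list of 23 with all tested, included 0 higher and 8 lower genes at an unadjusted p under 0.05 by edgeR, beside 12.4% and 11.5% of all genes, and 0 past the adjusted threshold; the median log2 fold change was -0.05. The smallest p-values were those of DNMT1, the maintenance DNA methyltransferase (-0.21 ± 0.05), STAG1, a cohesin subunit (-0.33 ± 0.10), and CTCF, the boundary factor that binds protocadherin promoters (-0.16 ± 0.05), with adjusted p = 0.0760, 0.112 and 0.121 by edgeR. CTCF was at 78.0, 79.1 and 76.5 TPM in vehicle and 66.4, 73.2 and 64.4 TPM with Aβ42, without overlap. With the replicate block in edgeR, DNMT1 and STAG1 were lower at adjusted p = 0.0179 and 0.00814, and CTCF did not pass at adjusted p = 0.0574 by edgeR.

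Partners that bind, signal from or cut protocadherins made a list of 29, with 4 higher and 2 lower at an unadjusted p under 0.05 by edgeR, beside 12.4% and 11.5% of all genes, and 0 past the adjusted threshold. PTK2B, the kinase PYK2, which clustered protocadherins bind and inhibit, was at 9.39, 7.71 and 9.14 TPM in vehicle and 14.4, 12.9 and 14.2 TPM with Aβ42, without overlap. Its log2 fold change was 0.68 ± 0.10, with adjusted p = 0.0684 by edgeR and 0.000186 with the replicate block. WASF2, of the WAVE complex that protocadherin tails recruit, had 0.20 ± 0.05, and MARCKS, an actin-binding target of protein kinase C, had -0.31 ± 0.08 (adjusted p = 0.0734 and 0.0856 by edgeR, 0.0192 and 0.000941 with the block). With the block, 3 of the 29 were higher and 1 lower, beside 7.12% and 7.05% of all genes.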

How the data were processed

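Polyadenylated RNA from 6 organoid samples was sequenced as stranded libraries, per the labels' protocols. The authors deposited 1 table with estimated counts and TPM per gene and library; the submitters' processing notes name STAR 2.7.11b, featureCounts 2.0.6 and GRCh38, and how fractional counts arose is not given in the sources used here. The members, gene lists and tests were chosen with earlier results of these data known.

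Symbols and gene IDs were taken from the table, and all 64 members were matched to the annotation. No column of other samples was present (0). Estimated counts, 16465390 to 16742958 per library, were rounded to whole numbers, filtered with filterByExpr (13842 genes kept), scaled by TMM and tested with edgeR 4.0.16 (glmQLFit and glmQLFTest, two-sided, Benjamini-Hochberg adjustment, threshold 0.05) in R 4.3.3; limma 3.58.1 and DESeq2 1.42.0 served for alternatives, 18 in all. The common biological coefficient of variation was 6.75%. No molecular identifiers are mentioned, so counts are not independent molecules. The p-values measure the spread between these samples. The edgeR procedure without the block was tested on simulated data. The simulated spread followed the fitted trend, which for PCDHGB5 was 12.5% beside 97.5% fitted to the gene itself. The simulation therefore does not speak for the more variable members or for the block. Tables and sequences were handled in Python 3.11.15 with pandas 2.3.3 and Biopython 1.88, and drawn with matplotlib 3.10.9.

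Members named are, in each of 9 groups, the 2 with the highest mean TPM and the 2 with the smallest p, all C-type, delta-1 and delta-2 members and any member that passed with or without the replicate block; in each list of other genes, the 3 with the smallest p. Deviations from the group means correlated at 0.181, 0.388 and 0.129 over 12186 genes between libraries numbered 1, 2 and 3, all above 0.1, so the numbers were taken to pair them. The labels do not state a pairing. Vehicle replicate 3 with Aβ42 replicate 1 (0.177) and vehicle replicate 1 with Aβ42 replicate 3 (0.154) correlated above the pair numbered 3, and over 46 members the same-numbered pairs were at 0.098, 0.399 and 0.157, so the calls made with the block rest on a pairing seen only in the data.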

Additional observations from a re-analysis of the deposited data

How the results depend on the processing

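PCDHGB4 and PCDHB2 kept their sign in 18 of 18 alternatives and passed in 7 of them. Members past the adjusted threshold, 0 without the block, numbered 3 higher and 3 lower with the replicate block (7.12% and 7.05% of all genes) and 5 higher and 3 lower with the replicate block and a transcript length offset (7.54% and 6.89%). Without a filter there were 2 lower (0.984% of all genes), with DESeq2 2 lower (3.46%), and with limma-voom and quality weights 2 higher and 5 lower (9.04% and 9.33%). Without both libraries numbered 2, a setting chosen after seeing the data, there were 5 higher and 4 lower (8.19% and 8.50%). At an unadjusted p under 0.05, 6 members were higher with DESeq2 (9.87% of all genes) and 7 with limma-voom (17.5%). The replicate block gave 8 (14.9%), as did the block and length offset (8, beside 15.3%). There were 11 higher and 10 lower (15.8% and 15.7%) without both libraries numbered 2, where 13 higher and 13 lower members did not overlap, beside 29.9% and 29.7% of all genes.

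As single libraries were left out, members past the adjusted threshold ranged from 0 to 6 higher and 0 to 5 lower, the 6 and 5 without Aβ42 replicate 2, where 23.1% of all genes passed. Those with an unadjusted p under 0.05 ranged from 2 to 8 higher and 4 to 8 lower, beside 7.01% to 18.5% and 6.40% to 18.5% of all genes. Those without overlap ranged from 3 to 9 higher and 9 to 13 lower, beside 16.2% to 26.9% and 15.8% to 26.6%. Median log2 fold changes ranged from -0.083 to 0.0749 (PCDHA), -0.1863 to -0.0049 (alternate PCDHA), 0.1811 to 0.3061 (C-type PCDHA), -0.1351 to -0.0393 (PCDHB), -0.244 to -0.0383 (PCDHG), -0.3545 to -0.0239 (PCDHGA), -0.2956 to -0.1373 (PCDHGB), 0.0164 to 0.1432 (C-type PCDHG), 0.0283 to 0.1504 (non-clustered), -0.1396 to 0.0358 (delta-1), -0.0254 to 0.2472 (delta-2) and 0.4793 to 0.7 (PCDH12 and PCDH20). Of the 60 members tested, 26 took both signs as single libraries were left out, among them PCDHGB5, PCDHA6, PCDHA9, PCDHB5 and PCDHGA9. Of the members named by rule, those that did were PCDH10 (-0.0414 to 0.1308), PCDH12 (-0.0094 to 0.2992), PCDH17 (-0.1281 to 0.2693), PCDH19 (-0.0254 to 0.2885), PCDH7 (-0.1396 to 0.0358), PCDHGA8 (-0.0239 to 0.3), PCDHGC3 (-0.2971 to 0.0752) and PCDHGC4 (-0.1425 to 0.1432).

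Other settings moved medians. That of PCDH12 and PCDH20 was 0.2305 on log2(TPM + 1). Without a filter and with DESeq2, PCDH15 entered this set, and the median of the 3 genes was 0.1652 and 0.1631. The log2 ratio of the CPM summed over the 3 genes, which is not a median, was 0.3506. The median of PCDHG was -0.1519 with limma-voom and -0.1265 on log2(TPM + 1), and that of PCDHGB -0.3385 on log2(TPM + 0.1). The log2 ratio of summed CPM was -0.1103 for PCDHG and -0.1376 for PCDHGB. For delta-1 and PCDHGA this ratio, in which abundant members weigh more, was 0.0866 and 0.0795, opposite in sign to their medians. Without both libraries numbered 2, the non-clustered and delta-2 medians were 0.202 and 0.2638, and PCDH12, PCDH7 and PCDHGC3 had the opposite sign, -0.0524, 0.0042 and 0.0826. PCDHGC4 was at -0.0932 on log2(TPM + 1) and -0.0968 on log2(TPM + 0.1), scales on which the median of all genes was -0.04. Apart from PCDH15 entering its set, the cause of these shifts was not tested. At the adjusted threshold, the replicate block changed no call of a protocadherin beyond the 6 it called. At an unadjusted p under 0.05 it also moved PCDHA2, PCDHA13, PCDH9, PCDHGB7 and PCDHGA12 past the threshold. Few counts limit PCDH20, PCDHGA4, PCDHB1 and PCDH15, and shared sequence limits every alpha and gamma value.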

Other observations

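The remaining cadherin superfamily was described from a list of 38 genes, of which 33 were tested. At an unadjusted p under 0.05 by edgeR's quasi-likelihood test, 2 were higher and 5 lower with Aβ42, beside 12.4% and 11.5% of all genes, and 0 passed the adjusted threshold. CDH13, a cadherin anchored in the membrane by a lipid, was at 50.4, 58.9 and 51.2 TPM in vehicle and 47.1, 44.4 and 43.1 TPM with Aβ42 (log2 fold change -0.30 ± 0.07, adjusted p = 0.0734 by edgeR, 0.0116 with the replicate block). DCHS1, the large cadherin that pairs with FAT4, was at 55.3, 57.9 and 55.4 TPM in vehicle and 39.7, 51.7 and 39.9 TPM with Aβ42 (-0.32 ± 0.09, 0.0926 and 0.00342). CDH3, P-cadherin, was at 12.8 to 13.1 TPM in vehicle and 14.4 to 18 TPM with Aβ42 (0.37 ± 0.10, 0.0807 and 0.0103). None of these 3 genes had overlapping groups. With the replicate block 1 of the 33 was higher and 4 were lower, beside 7.12% and 7.05% of all genes.

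Ratios of count to TPM also varied for PCDHGB3, which was not tested. It had 9, 9 and 14.5 estimated counts in the vehicle libraries and 9, 10 and 8 in the Aβ42 libraries, whole in 5 of 6, beside 0.48 to 0.59 TPM and 0.49 to 0.62 TPM. Vehicle replicate 3, the only library with a fractional count, had the highest count and the lowest TPM. The ratio varied 1.97-fold between libraries.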
